A study of Homo sapiens with 24 samples.

Results

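The 49 genes described here encode the ligands, antagonists, receptors, SMADs, regulators and direct targets of Nodal, TGF-β and BMP signaling, and the m6A peaks on their transcripts were examined in 6 cell populations. They were chosen by symbol, as a list of 12 ligands, 6 antagonists, 10 receptors, 8 SMADs, 8 regulators and 5 targets, and a peak was counted for a member when its gene field named that member. This gave 696 of the 228472 peaks of the series, or 0.305%, and 47 of the 49 members had a peak in at least 1 list. In m6A-seq, RNA fragments bound by an antibody against N6-methyladenosine (m6A) are sequenced (IP) beside the unselected fragments (input), and stretches where IP exceeds input are called as peaks.

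All cells came from MEL1 INS GFP/W, a human embryonic stem cell line that carries a GFP reporter at 1 allele of the insulin gene, so that every population shares this reporter. The 4 populations of batch 1 followed its differentiation: undifferentiated cells grown on CF1 feeders (hPSC), DE or definitive endoderm, PP or pancreatic progenitors, and hILO or human islet-like organoids, for which mRNA and a SYSY antibody were used. Batch 2 held wild-type PP (WT PP) and PP lacking ALKBH5, the enzyme that removes m6A (A5-KO PP), for which total RNA, a Millipore antibody, another library kit and inputs depleted of rRNA were used. Each population had 2 IP and 2 input libraries, and these had been pooled into 1 list, so that no list held values per library, no spread between cultures could be computed and no test between populations was made. The knockout was made by CRISPR-Cpf1 in the first exon of ALKBH5 in this same line, and ALKBH5 transcripts had 3 peaks in each stage and 4 and 5 in WT PP and A5-KO PP, so the lists hold no check of the knockout. Since antibody, RNA and kit changed together with the batch, the 2 sets of lists are set side by side below. Differences between them were not read as differences between cells. The shared medium protocol contained activin A, a Nodal-like ligand, at 100 ng/ml on days 1 to 3, the BMP receptor inhibitor LDN-193189 at 0.1 µM on days 7 to 22, and 616452, an inhibitor of the TGF-β type I receptor, at 10 µM from day 15 onward, also after LDN-193189 was withdrawn. The labels do not give the day on which each population was collected. By the study's methods, hPSC preceded day 1 and DE was made in the activin A media. The media leading from PP to hILO began on day 15. LDN-193189 thus came after DE, and 616452 reached hILO alone.

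Nodal, activin and TGF-β bind paired type I and type II receptor kinases that phosphorylate SMAD2 and SMAD3, whereas BMPs act through SMAD1, SMAD5 and SMAD9, and both branches share SMAD4. LEFTY proteins, Follistatin, Noggin and Chordin block the ligands outside the cell, and SMAD6, SMAD7, SMURF ubiquitin ligases, SKI family proteins and TGIF proteins limit the signal inside it. Nodal and activin signaling sustains pluripotency at moderate level and specifies endoderm at high level, and blocking BMP and TGF-β signaling later is a usual step on the way to pancreatic and endocrine cells. m6A is placed on the A of the consensus DRACH, most often GGAC, and lies mainly in long internal exons and around stop codons.

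To show sequence under called peaks, 10 stretches of 25 nt are given from peaks that recurred on the transcripts the results turn on. Each was read from GRCh38 on the transcript strand, and the capitals mark the DRACH site (where D stands for any base but C, R for A or G, and H for any base but G) nearest the middle of the stretch common to the lists named, with a site holding GGAC preferred. GGAC sites followed by A, C or T are also DRACH sites, so the 2 motifs overlap. The shared stretch of NODAL in the 3′UTR held 14 DRACH sites and no GGAC, whereas the other stretches except that of ID1 held at least 1 GGAC site. The capitals mark letters, not a mapped methylated base. The 5′UTR peaks of ID1 in the 4 stages began at the annotated start of the gene.
NODAL 3′UTR, hPSC and DE, chr10:70432664-70432688, minus strand: tttactgaaaAGACAgtggcaagga
NODAL CDS, hPSC and DE, chr10:70435761-70435785, minus strand: ggtttcagatGGACCtattcactgt
BMP2 CDS, all 6 lists, chr20:6778797-6778821, plus strand: ctttgtacgtGGACTtcagtgacgt
BMP4 CDS, the 4 stages, chr14:53950228-53950252, minus strand: actgccatggGGACTgcccctttcc
ACVR2A 3′UTR, all 6 lists, chr2:147927296-147927320, plus strand: ctaagaaatgGGACTctgaactgga
ACVR1 3′UTR, all 6 lists, chr2:157737463-157737487, minus strand: tgtccagctgGGACCtaatgctggc
BMPR1A 3′UTR, all 6 lists, chr10:86923914-86923938, plus strand: ctttatatatGGACAgctttatttt
SMAD5 CDS, all 6 lists, chr5:136153928-136153952, plus strand: gagcagtccaGGACAgccgagtaaa
SKI 3′UTR, all 6 lists, chr1:2307233-2307257, plus strand: ggctgcgtgaGGACAgcaggggttt
ID1 5′UTR, all 6 lists, chr20:31605291-31605315, plus strand: tccacgttctTAACTgttccatttt

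The member peaks held more of these motifs than the rest of the same exons. In hPSC, 23.8 DRACH sites per 1000 nt stood in member peaks and 17.2 per 1000 nt in the remaining exons of those genes, and in A5-KO PP 22.1 and 17.4. The ratio was 1.24 to 1.44 over the 6 lists, where the same ratio over all genes was 1.21 to 1.28. For GGAC the ratio was 1.64 to 2.00 in members and 1.39 to 1.65 over all genes, so the density of GGAC differed more between peaks and the remaining exons than that of DRACH. A DRACH site stood in 87.6% to 95.1% of member peaks and in 88.9% to 93.0% of all peaks, and a GGAC site in 55.9% to 66.0% and 51.8% to 58.7%. A peak without the letters says nothing about the enzyme.

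The depth inside peaks, counted over all peaks of a list, ranged from 6987612 (PP) to 28463998 (hILO) input reads. IP reads ranged from 30723097 (DE) to 79822815 (hPSC). How far depth shaped which peaks were listed was not tested. All 5 DE markers had a peak in DE, all 5 PP markers in PP, WT PP and A5-KO PP, and all 5 islet markers in hILO, while 3 of 4 pluripotency markers had one in hPSC. A peak on a marker did not separate the stages, since 3 of 4 pluripotency markers were also listed in DE, all 5 PP markers in hILO, and 4 of 5 DE markers in both lists of batch 2. Islet markers were the most restricted, with 1 or 2 of 5 listed outside hILO. Markers of other cells were also listed, with peaks on 4 of 4 hepatic genes in hILO, 3 of 4 and 2 of 4 in the WT PP and A5-KO PP lists, and on 3 of 3 mesenchymal genes in PP, hILO and A5-KO PP. Pluripotency markers had no peak in WT PP and A5-KO PP but 2 of 4 had one in PP. Their part in the results below was not tested.

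Most members had an m6A peak in each population. The share with at least 1 peak was 39 of 49 in hPSC (79.6%, exact 95% interval 65.7% to 89.8%), against 60.2% of all protein-coding genes. It was 38 in DE (77.6%, 63.4% to 88.2%, against 57.0%), 36 in PP (73.5%, 58.9% to 85.1%, against 52.2%) and 39 in hILO (79.6%, 65.7% to 89.8%, against 57.7%). In batch 2 it was 41 in WT PP (83.7%, 70.3% to 92.7%, against 62.8%) and 40 in A5-KO PP (81.6%, 68.0% to 91.2%, against 69.7%). The interval lay above the share of all protein-coding genes for each stage and for WT PP, and included it for A5-KO PP. These intervals treat genes as draws and cover counting error only, and the background includes genes that these cells do not express. In bulk RNA, fewer cells of a type and less RNA per cell cannot be told apart, and a transcript with too few reads cannot yield a peak, so a missing peak was not read as a missing mark.

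**Figure D1:**
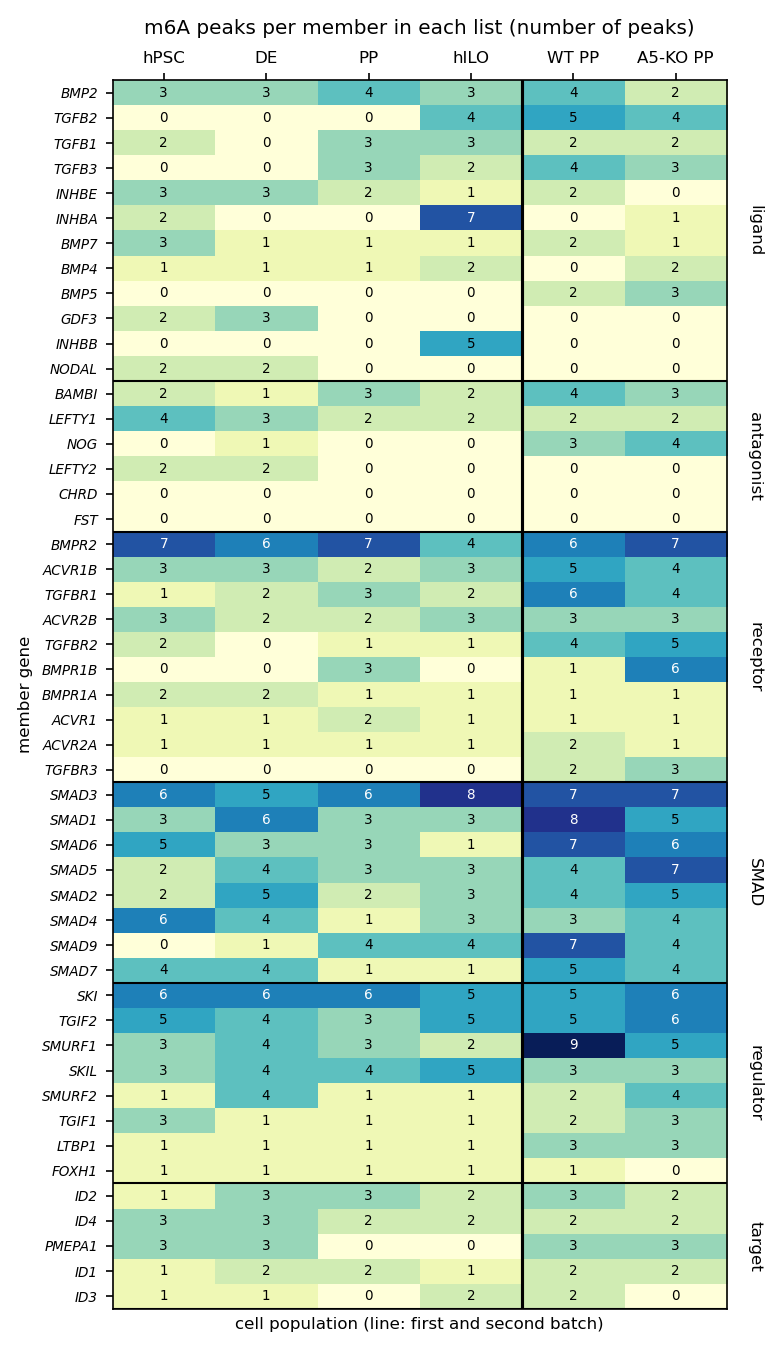
Number of m6A peaks on each of the 49 members (vertical axis, ordered by role and then by total) in each of the 6 lists (horizontal axis), with the number in each cell and darker cells for more peaks; the vertical line separates batch 1 from batch 2. SMADs and regulators were filled in almost every list, whereas NODAL, GDF3 and LEFTY2 had peaks only in hPSC and DE and INHBB only in hILO.

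Of the 49 members, 28 had a peak in all 6 lists (57.1%, exact 95% interval 42.2% to 71.2%), against 37.7% of all protein-coding genes. Among them were 7 of 8 SMADs, 7 of 8 regulators, 7 of 10 receptors, 3 of 5 targets, 2 of 6 antagonists and 2 of 12 ligands. SMAD7 counted there through a single PP peak upstream of its annotated exons, and with peaks on own exons alone it was 27 members and 6 of 8 SMADs. INHBE, BMP4 and FOXH1 had a peak in all 4 stages but not in both lists of batch 2. FST and CHRD, which encode the antagonists Follistatin and Chordin, had no peak in any list, and TGFBR3, a coreceptor, and BMP5 had one in WT PP and A5-KO PP alone.

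The ligands divided most between populations. NODAL, the inducer of mesendoderm, had 2 peaks in hPSC and 2 in DE and none in PP, hILO or batch 2. GDF3, a Nodal-related ligand of pluripotent cells, had 2 and 3 peaks in the same lists and none elsewhere. The activin subunit genes were listed later, with 7 peaks of INHBA and 5 of INHBB in hILO, although INHBA also had 2 small peaks in hPSC and 1 in A5-KO PP. INHBE went the other way, with 3, 3, 2 and 1 peaks from hPSC to hILO.

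The 3 TGF-β genes also differed among stages. TGFB1 had 2, 0, 3 and 3 peaks in hPSC, DE, PP and hILO and 2 in each list of batch 2. TGFB3 was listed with 3 peaks in PP and 2 in hILO, and TGFB2 with 4 in hILO, while hPSC and DE held none of either. DE thus had no peak on any of the 3 TGF-β ligands. Of the 2 ligands listed everywhere, BMP2 had 2 to 4 peaks per list and BMP7 had 1 to 3. BMP4 had 1 peak in hPSC, DE and PP, 2 in hILO and A5-KO PP and none in WT PP.

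Among antagonists, LEFTY1 and LEFTY2, the feedback inhibitors of Nodal, are near-identical neighbours on chromosome 1, so reads and peaks assigned to one may come from the other. LEFTY2 had 2 peaks in hPSC and 2 in DE and none elsewhere, like NODAL, whereas LEFTY1 had 4, 3, 2 and 2 peaks over the stages and 2 in each list of batch 2. Of the 4 in hPSC, 1 lay outside the exons of LEFTY1. BAMBI, a decoy receptor, had 1 to 4 peaks in every list. NOG, the gene for the BMP antagonist Noggin, had 1 peak in DE among the stages, and batch 2 held 3 (WT PP) and 4 (A5-KO PP).

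Receptors of both branches were listed throughout. BMPR2, the type II receptor of BMPs, had the second largest number of peaks over the 4 stages, 24, of which its long CDS stretch at chr2:202555304-202556528 and the stop codon region at chr2:202559768-202560192 were covered in all 6 lists. ACVR2A, ACVR1 and BMPR1A had only 1 or 2 peaks per list, and for each of them a single stretch with its midpoint in the 3′UTR was present in all 6 lists. ACVR1B and ACVR2B, the receptors of activin and Nodal, had 2 to 5 and 2 to 3 peaks, and TGFBR1 had 1 to 6. TGFBR2, the type II receptor of TGF-β, had no peak in DE, in which no TGF-β ligand had one either, and 1 to 5 elsewhere. BMPR1B, a BMP type I receptor, had 3 peaks in PP alone among the stages, and batch 2 held 1 (WT PP) and 6 (A5-KO PP).

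SMADs carried the most peaks of the 6 roles in hPSC, DE and batch 2. In PP they had 23 and receptors 22, or 22 each on their own exons, and in hILO ligands had 28 and SMADs 26. SMAD3 had 25 over the 4 stages, the largest number of any member, with 6, 5, 6 and 8 in hPSC, DE, PP and hILO and 7 in each list of batch 2, mainly along its 3′UTR. SMAD1 had 3, 6, 3 and 3 peaks over the stages, SMAD2 had 2, 5, 2 and 3, and SMAD5 had 2, 4, 3 and 3. SMAD4, the common partner, had 6, 4, 1 and 3, of which 3 over all lists lay outside its annotated exons. These signal-carrying SMADs were all listed in every population. SMAD9, the least used BMP SMAD, was absent from the hPSC list and had 1, 4 and 4 peaks in DE, PP and hILO. Of the inhibitory SMADs, SMAD6 had 5, 3, 3 and 1 and SMAD7 had 4, 4, 1 and 1, with 8 SMAD7 peaks over all lists lying upstream of its annotated exons.

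Among regulators, the corepressor gene SKI had 6, 6, 6 and 5 peaks over the stages, 23 in all, and its relative SKIL had 3, 4, 4 and 5. The homeodomain corepressor genes TGIF2 and TGIF1 had 5, 4, 3 and 5 and 3, 1, 1 and 1, and 6 of the TGIF2 peaks over all lists lay outside its own exons. The ubiquitin ligase genes SMURF1 and SMURF2 had 3, 4, 3 and 2 and 1, 4, 1 and 1, and SMURF1 reached 9 in WT PP. LTBP1, which holds latent TGF-β in the matrix, had 1 peak per stage and 3 in each list of batch 2. FOXH1, the DNA-binding partner of SMAD2 in Nodal signaling, had 1 peak in each stage and in WT PP and none in A5-KO PP.

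Of the targets, ID1, ID2 and ID4, which encode inhibitors of basic helix-loop-helix factors induced by BMPs, had 1 to 2, 1 to 3 and 2 to 3 peaks in every list. ID3 had a peak in hPSC, DE, hILO and WT PP but not in PP or A5-KO PP. PMEPA1, a target and feedback inhibitor of TGF-β, had 3 peaks each in hPSC and DE, none in PP or hILO, and 3 in each list of batch 2. PP and WT PP, which carry the same cell type label, therefore differed on PMEPA1, as they did on NOG, TGFB2, BMP4, BMP5, TGFBR3 and ID3. Batch and cells cannot be told apart there. Of 40 further genes of these pathways, 28, 31, 23 and 24 were listed at the successive stages and 32 in each list of batch 2. Of all protein-coding genes, 60.2%, 57.0%, 52.2% and 57.7% were listed at these stages, and 62.8% (WT PP) and 69.7% (A5-KO PP) in batch 2. EOMES and GSC, endoderm genes that Nodal signaling induces, were listed in DE alone, and CER1 and TDGF1 in hPSC and DE among the stages.

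Where peaks of several lists overlapped, they were merged into stretches, 218 in all. Of these, 33 on 24 members were present in all 6 lists (15.1%, exact 95% interval 10.7% to 20.6%), against 11.2% of 68648 stretches over all protein-coding genes, and 100 in a single list (45.9%, 39.1% to 52.7%, against 50.7%). Both intervals included the share over all genes. The stretches found in all lists lay in the 3′UTR in 22 cases (66.7%, 48.2% to 82.0%), against 44.2% over all genes, and in the CDS in 8 (24.2%, 11.1% to 42.3%), against 49.6%. In the 5′UTR there were 3 (9.09%, 1.92% to 24.3%, against 2.27%), and 10 had their midpoint within 200 nt of the stop codon (30.3%, 15.6% to 48.7%, against 26.4%). The 3 in the 5′UTR were those of BMP2, ID1 and ID2. Of the 100 stretches found in 1 list, 39 were from WT PP, against 27.0% of such stretches over all genes, 25 from A5-KO PP, against 37.1%, and 19 from hILO, against 11.5%. The others were 11 from hPSC, 4 from DE and 2 from PP, against 11.1%, 6.48% and 6.94%. Among the 100 stretches, 22 lay in the 5′UTR, against 9.86% over all genes, 38 in the CDS, against 49.1%, and 29 in the 3′UTR, against 24.6%. Stretches of 1 gene are not independent.

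By position, member peaks lay less often in the CDS than the peaks of all genes. The CDS held 33.0% of member peaks in hPSC (exact 95% interval 23.8% to 43.3%) and 33.7%, 41.9% and 34.0% at the following stages, with 37.1% for WT PP and 38.2% for A5-KO PP, against 50.2% to 57.3% of all peaks, and the interval lay below the share of all peaks in each of the 6 lists. The 3′UTR held 45.0% to 58.2% of member peaks, against 35.2% to 42.7% of all peaks. Its interval lay above the share of all peaks in DE (47.8% to 68.1% against 42.7%), hILO (45.7% to 65.9% against 40.7%) and A5-KO PP (38.4% to 55.8% against 35.2%), and included it in hPSC (38.2% to 58.8% against 38.6%), PP (35.7% to 57.6% against 36.3%) and WT PP (36.6% to 53.6% against 42.2%). The 5′UTR held 8.16% to 18.6%, against 4.32% to 7.71%, and the interval included the share of all peaks in DE and PP. The 18.6% in hPSC came from genes such as SMAD6, BMP2 and BMPR2. Between 17.1% and 26.5% of member peaks had their midpoint at most 200 nt from the stop codon, against 17.5% to 21.5% of all peaks, and each list's interval included that share. Peaks of 1 gene are not independent, so these intervals are too narrow.

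About as many member peaks were carried from stage to stage as over the whole lists. Of 106 member peaks in DE, 72 (67.9%, exact 95% interval 58.2% to 76.7%) were covered over more than 50% of their exonic length by hPSC peaks, against 64.7% of all DE peaks. In PP, 57 of 91 (62.6%, 51.9% to 72.6%) were covered by DE peaks, against 57.0%, and in hILO, 53 of 102 (52.0%, 41.8% to 62.0%) by PP peaks, against 45.6%. All 3 intervals included the share over all peaks. In A5-KO PP, 102 of 143 member peaks (71.3%, 63.2% to 78.6%) were covered by WT PP peaks, against 46.8% of all A5-KO PP peaks, and here the interval did not include that share. Counted the other way, 54.7% of the 148 WT PP member peaks (46.3% to 62.9%) were covered by A5-KO PP peaks, against 50.0% of all WT PP peaks, and that interval included the share over all peaks. The A5-KO PP list held 55219 peaks against 43312 in WT PP, whereas for members the numbers were 143 and 148. All members are protein-coding, but these totals and the shares over all peaks also count peaks not placed on a coding isoform. Peaks placed on one numbered 37183 in A5-KO PP and 32941 in WT PP over all genes, and 136 and 140 on members.

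The reads and enrichments deposited with each peak could be used for some of the peaks only. Along each list, ordered by the number the peak caller gave each peak, the exonic length of a peak correlated with its IP reads in some stretches, in others it correlated instead with the reads listed under a peak number 1 to 30 lower, and in the rest no offset stood out. Values were therefore taken as belonging to their peak only where offset 0 gave the highest correlation, by at least 0.1 over the 200 peak numbers to each side and also in each of these sides alone, a rule chosen after seeing the data. This kept 38.7%, 36.1%, 13.3% and 10.1% of peaks at the successive stages from hPSC to hILO, 8.37% for WT PP and 7.59% for A5-KO PP. As a separate check, the input read density of neighbouring peaks of the same gene correlated with r of 0.58 to 0.82 among the kept peaks and 0.16 to 0.26 among the others, across pairs of peaks, which are not independent. Values were in register for 61 of 106 member peaks of hPSC, 47 of 106 of DE, 20 of 91 of PP and 24 of 102 of hILO, and in batch 2 for 24 of 148 (WT PP) and 27 of 143 (A5-KO PP). Peak positions, gene names and sequences do not depend on this.

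Input reads were compared only at overlapping peaks, since sums over separately called peaks would mix different stretches of a transcript. Densities are input reads per kb of peak, scaled to 1000000 input reads in all peaks of the list. In the 28 pairs on 14 members with values in register and at least 50 input reads in hPSC and DE, 14 were denser in DE and 14 less dense, with a median ratio of 1.02 over member pairs and 0.938 over 5858 pairs of all genes. At least 2 times denser in DE were 8, against 15.2% of all pairs, and at least 2 times less dense were 7, against 19.4%.

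The 8 denser pairs lay on NODAL, LEFTY1, LEFTY2, FOXH1 and PMEPA1. The LEFTY1 peak in the 3′UTR had 750 input reads over 325 nt in hPSC and 45515 over 275 nt in DE, a density of 290 and 13100 and a ratio of 45.4. Its CDS peak had a ratio of 30.4 and its distal 3′UTR peak one of 51.4, and the CDS peak of LEFTY2 had 53.0, although these 2 genes cannot be told apart with certainty. NODAL had 495 and 7540 reads at its 3′UTR peak, a ratio of 10.1, and 230 and 2336 at its CDS peak, a ratio of 7.71. FOXH1 had a ratio of 2.26 and PMEPA1 one of 4.95 in the 3′UTR, but these peaks differed in length, with 100 and 275 nt for FOXH1 and 325 and 50 nt for PMEPA1. A second PMEPA1 pair, in the CDS, had 109 and 448 input reads and a ratio of only 1.30.

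The 7 less dense pairs lay on SKIL, TGIF2, SMAD4 and ID1. TGIF2 had a ratio of 0.327 at the stop codon and 0.404 in the 3′UTR, and SKIL had 0.333 and 0.413 at its upstream CDS peaks. The peaks of SMAD4 differed in direction, with 0.199 and 0.401 at its upstream CDS and 3′UTR peaks and 1.31 at its longest stretch, chr18:51058445-51059903, where 302 input reads stood in hPSC and 649 in DE. The receptor gene ACVR1B also had one pair on each side of 1, at 0.768 and 1.55. Genes that act in Nodal signaling thus held pairs of both directions.

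BMP2 was sparse in hPSC and fell under the limit of 50 reads there. At its CDS peak, 33, 3857, 425 and 2136 input reads stood at the successive stages, a density of 7.53, 371, 83.9 and 77.0. That peak in DE, chr20:6778452-6779276, was the first of all peaks in the list, which is ordered by adjusted p-value, with 19866 IP reads. BMP4 had a density of 71.1, 112 and 13.4 in hPSC, DE and PP and of 17.4 at its overlapping hILO peak, and the PP value rested on 21 input reads. The 5′UTR peak of ID1 had 109, 50.8, 139 and 24.6 over the 4 stages, from 152, 96, 146 and 140 input reads. Among all genes the median ratio was 1.68 from DE to PP and 0.427 from PP to hILO, so densities after DE are to be read against these shifts. Each is 1 value per list with no replicate, and input reads in peaks cover called stretches alone, so they are no measure of whole transcripts.

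The log2 enrichments of the same 28 pairs differed by −0.73 to 0.60 between hPSC and DE. Among them no log2 enrichment was 1 or more higher in DE, against 0.273% of 5858 such pairs over all genes, and none was 1 or more lower, against 0.546%. At shares this low, here and at the later stages, a count of 0 is no result about the members. The median difference was −0.04 over member pairs and −0.11 over all pairs. NODAL had a log2 enrichment of 2.55 in hPSC and 2.23 in DE in the 3′UTR, and 1.80 and 1.59 in the CDS. The LEFTY1 peak at the stop codon side of the 3′UTR had 2.30 and 2.21, and BMP4 had 2.46 and 2.42. The NODAL, LEFTY1 and LEFTY2 pairs, with the widest differences in input density, thus had enrichments that differed by at most 0.60 on the log2 scale.

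The largest positive differences from hPSC to DE were 0.60 ± 0.13 (counting error of pooled reads) for the distal 3′UTR peak of LEFTY1, 0.33 ± 0.21 for ACVR2A and 0.27 ± 0.06 for the CDS peak of LEFTY1. The largest negative ones were −0.73 ± 0.25 for the 3′UTR peak of PMEPA1, −0.39 ± 0.16 for a CDS peak of SKIL and −0.34 ± 0.23 for ACVR1B. From the log2 ratio of IP over input counts, centred on the median of all pairs (centred counts), 10 of the 28 pairs turned sign, and these 6 values were 0.68, 0.09, 0.48, −0.88, −0.25 and −0.13 in the same order. Those that turned included the NODAL CDS pair (0.03), the LEFTY1 pair at the stop codon side of the 3′UTR (0.05) and BMP4 (0.06). ACVR2A had the most strongly enriched member stretch that could be followed through all 4 stages, at 2.96, 3.29, 2.83 and 2.76 from hPSC to hILO. Counting error leaves out the variation between cultures, and the lists were normalized separately.

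From DE to PP, 8 pairs on 4 members could be read, and none was 1 or more higher, against 0.0% of 1760 pairs, or lower, against 0.739%. The most negative was the TGIF2 peak at the stop codon, with 2.62 in DE and 1.73 in PP (difference −0.89 ± 0.11), followed by a BMP2 pair at −0.76 ± 0.22 and ACVR2A at −0.46 ± 0.17. The BMP2 pair set a DE peak of 450 nt against a PP peak of 50 nt, and the PP peak that shared 350 nt with the same DE peak differed by −0.08 ± 0.14. The highest difference was that of the ID1 5′UTR peak, at 0.21 ± 0.21. Most of these values depended on how enrichment was taken: from centred counts, TGIF2 differed by −0.46, the first BMP2 pair by −0.30 and the ID1 5′UTR peak by 0.65. ACVR2A, at −0.47, hardly moved and was then the most negative. The second BMP2 pair (0.36) and the ID1 3′UTR pair (0.15, against −0.15 ± 0.08) turned positive. From PP to hILO, 6 pairs on 4 members gave none higher, against 0.125% of 1598 pairs, and none lower, against 0.939%. Here ID1 had 1.69 and 2.13 (0.44 ± 0.18) and TGIF2 1.73 and 2.15 (0.42 ± 0.09), while a BMP2 5′UTR pair differed by −0.42 ± 0.15. From centred counts these were 0.22, 0.10 and −0.77. With 2.67 in hPSC, the TGIF2 peak at the stop codon was lowest in PP of the 4 stages.

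Between WT PP and A5-KO PP, 14 pairs on 8 members could be read, of which none was 1 or more higher in A5-KO PP, against 6.41% of 1654 pairs over all genes, and 1 was lower, against 12.5%. That pair was in the 3′UTR of SMURF2, next to the stop codon, with a log2 enrichment of 3.96 in WT PP from 127 input and 266 IP reads and 2.64 in A5-KO PP from 156 and 134 (difference −1.32 ± 0.23). These peaks differed in length, with 475 nt in WT PP and 175 nt in A5-KO PP. The same WT PP peak also overlapped an A5-KO PP peak further along the 3′UTR. That peak had only 25 input reads, and the difference there was 2.00 ± 0.34. The SMURF2 peak of WT PP thus met a lower and a higher peak in A5-KO PP.

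ACVR2B lay just inside the limit, at −0.99 ± 0.07. This set its whole WT PP peak of 1000 nt against an A5-KO PP peak of 175 nt at the stop codon. Set against another A5-KO PP peak, of 750 nt in the 3′UTR, the same WT PP peak gave −0.09 ± 0.07. A CDS peak of TGFBR1 differed by −0.66 ± 0.19 and the 3′UTR peak of BMPR1A by −0.62 ± 0.09, from 5.72 to 5.10. The highest positive differences were 0.64 ± 0.14 for a 3′UTR peak of SMAD5, 0.64 ± 0.16 for the 5′UTR peak of ID2, of 200 nt in WT PP and 75 nt in A5-KO PP, and 0.30 ± 0.04 for the 5′UTR peak of TGFB1, the member peak with most reads in register in this comparison. From centred counts the ID2 5′UTR pair differed by 1.35 and the ACVR2B stop codon pair by −1.05, both past the limit, TGFBR1 by −0.22 and SMURF2 by −1.07. The median over member pairs was −0.09 and over all pairs −0.10. Of 109 member pairs in all, 46 had at least 50 input reads with the values as deposited, and of these 9 were higher and 7 lower, so the counts for this comparison depend on which values are taken to belong to which peak.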

How the data were processed

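Per the labels and the methods of the study, fastp trimming and HISAT2 alignment to GRCh38 were followed by peak calling with exomePeak2, which gave 1 list per population from all of its libraries. The authors deposited, with every peak, read counts of IP and of input pooled over libraries, a log2 enrichment of IP over input, and a p-value with its adjusted value. Whether pooled counts are sums or means was not given in the sources used here. The deposited lists were used as they are, without other columns. The members, the lists of other genes and the settings were chosen with earlier results of these data known.

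Peaks were reduced to the exons of the member in GENCODE 44 (678 of 696 lay on them), and 657 had a midpoint on its longest coding isoform. Peaks of 2 lists were paired by the partner sharing most bases. A difference of at least 1 on the log2 scale was called where each list had 50 or more input reads. Input densities were compared at such pairs only, a choice made after seeing the values. Counting errors came from the pooled counts with 0.5 added. Exact Clopper-Pearson intervals cover counting error only. Depth per library is unknown. Python 3.11.15, pandas 2.3.3, scipy 1.17.1 and pysam 0.24.0 were used, and scripts were tested on simulated data.

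The plan was to compare all pairs with values as deposited. After the offset between values and coordinates was seen, values in register became the reported ones: within 200 peak numbers to each side, and in each of these sides alone, offset 0 had to give the highest correlation among offsets of up to 60, by 0.1 over the window. Every member was given with its number of peaks. The rule for members described further took those in all 6 lists, in 1 stage or in no list, the 3 with most peaks, the 3 largest differences each way, and the 2 per role with most IP reads in register over the 4 stages. Other than in the plan, the last 2 were taken from values in register. Remarks beyond peak numbers on members outside the rule (GDF3, INHBA, INHBE, TGFB3, BMP4, BMP5, TGFBR2, TGFBR3, SMAD9, FOXH1 and ID3) were chosen after their values were seen.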

Additional observations from a re-analysis of the deposited data

How the results depend on the processing

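No paired analysis was possible because each list pools its libraries, and for the same reason leaving out a replicate, other size factors and a filter on low counts were not run. Values in register and values moved by the offset were alternatives chosen after seeing the data. For A5-KO PP against WT PP, the balance of higher and lower pairs was 0 to 1 and turned towards higher with values as deposited, with values moved by the offset and with a minimum of 20 reads. Of 134 alternative values, 73 moved by less than 1.5 times, or for shares stayed within the interval, among them all 6 counts of members on their own exons and all motif ratios with GGAC. The p, enrichment and input filters act on values that are mostly out of register, so their effect on single peaks was not read.

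With values as deposited, from hPSC to DE 3 of 50 pairs were lower, from DE to PP 1 was higher and 2 lower of 36, from PP to hILO 2 were lower of 35, and for A5-KO PP against WT PP 9 were higher and 7 lower of 46. With values moved by the offset, 1 of 30 was lower from DE to PP, 1 of 22 higher from PP to hILO, and 8 higher and 6 lower of 39 in A5-KO PP. With a threshold of 1.5-fold, 1 was higher and 1 lower from hPSC to DE, 2 lower from DE to PP, and 2 higher and 4 lower in A5-KO PP. With no minimum of input reads, 1 was lower in DE, and 3 were higher and 3 lower in A5-KO PP. For A5-KO PP, a minimum of 20 reads gave 3 higher, a minimum of 200 gave 0 lower, and centred count ratios gave 1 higher and 2 lower (ID2, and SMURF2 and ACVR2B). Centred count ratios turned the sign of 10 of 28, 2 of 8, 2 of 6 and 1 of 14 pairs in the 4 comparisons. The count of lower pairs in A5-KO PP, which rests on SMURF2, stayed at 1 with the minimum of 20 reads and moved with the others.

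The share of DE member peaks inherited from hPSC was 77.4% with any overlap and 46.2% reciprocally, against 71.5% and 47.6% of all peaks. The reciprocal share was 41.8% for PP and 45.5% for A5-KO PP, against 41.3% and 30.6% of all peaks. Counted over the earlier list the share was 48.1% from DE to PP, 68.1% from PP to hILO and 54.7% from WT PP, against 46.7%, 60.5% and 50.0% of all peaks, so that the interval from WT PP (46.3% to 62.9%) no longer lay above the share over all peaks. Any overlap with the CDS held for 48.5% of member peaks in hPSC, 45.9% in DE, 51.0% in hILO, and in batch 2 for 55.7% (WT PP) and 52.2% (A5-KO PP), against 61.0% to 66.2% of all peaks by the same rule. The member interval lay below the share of all peaks in 5 of the 6 lists and included it in WT PP (47.1% to 64.1% against 61.0%).

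Members with a peak at p below 1e-10 numbered 29, 28 and 24 at the first 3 stages and 31 (WT PP) and 29 (A5-KO PP) in batch 2. They numbered 32 in hPSC and 30 in hILO at an IP to input ratio of at least 3, and 32 in hPSC with at least 50 input reads. The share of protein-coding genes kept was 32.0% to 49.5% at p below 1e-10, 39.1% to 66.3% at that ratio and 43.2% to 56.0% with 50 input reads, and in all 6 lists the interval over members lay above it under each of these 3 filters. At p below 1e-05 it did so in 5 lists, and included the share of all genes in A5-KO PP. All these filters act on values mostly out of register, so they cannot decide whether members stay above all genes. Of member peaks, 57.8% to 82.5% were kept at that ratio, 56.6% to 93.1% at p below 1e-05, 30.8% to 64.7% at p below 1e-10 and 55.2% to 90.2% with 50 input reads, against 46.6% to 84.2%, 54.1% to 94.3%, 26.3% to 68.4% and 44.1% to 92.1% of all peaks. Member peaks at that ratio numbered 63, 68, 57 and 59 from hPSC to hILO. Those at p below 1e-05 numbered 69, 70 and 60 in hPSC, DE and PP, and 89 (WT PP) and 81 (A5-KO PP) in batch 2, and those at p below 1e-10 numbered 44, 44, 40, 66, 59 and 44 in the 6 lists. With at least 50 input reads there were 68 for hPSC, 59 for PP, 93 for WT PP and 79 for A5-KO PP.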

Other observations

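The offset between values and coordinates differed between lists. A clear offset other than 0 was found for 45.3%, 35.2%, 48.1% and 47.6% of peaks at the successive stages from hPSC to hILO and for 45.8% (WT PP) and 42.3% (A5-KO PP) in batch 2. The remaining peaks had offset 0 or no clear offset. Among peaks with a clear offset other than 0, the commonest was −2 in hPSC and DE, −1 in PP and hILO and −3 in WT PP and A5-KO PP. The lowest was −30, in A5-KO PP. Numbers absent from the run of peak numbers made up 0.136% in hPSC and 9.51% in WT PP. For the 3 WT PP peaks of BMP2 in the 5′UTR and CDS, none had values in register, so the stretch that led the DE list could not be followed into batch 2. The cause was not tested.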
